A study of Mus musculus with 8 samples.

Results

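The 42 genes described here were listed as genes linked to endothelial cells, which line blood and lymphatic vessels. They were followed in whole aorta from newborn Lox knockout (KO) and wild-type (WT) pups. They were taken by gene symbol, with 1 probe set per gene, from the 22180 genes that had a probe set of their own on the Affymetrix array. All 42 had exactly 1 such probe set, and all 42 passed the filter on dim genes (a mean over the 8 arrays of at least 4.11 log2), which left 16635 genes for the tests. The list covers receptors, junction proteins, secreted proteins, transcription factors, and genes typical of arteries, capillaries and lymphatic vessels. It also holds ligands such as Vegfc and Vegfd, and which cells made their RNA was not tested.

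There were 4 groups of 2 arrays: WT ascending, KO ascending, WT descending and KO descending aorta. Every array held RNA pooled from 8 pups of like genotype at postnatal day 0, on an albino C57BL/6J background that both genotypes shared. Per the labels, ascending aorta was taken down to the ductus arteriosus, starting at the valve, and descending aorta was taken above the diaphragm, starting at the level of the vena cava. The labels name the genotype as a lysyl oxidase knockout and do not describe the allele. The design asked which genes differ between the genotypes, between the segments, or both.

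Endothelial cells form a single layer on the inner side of the aorta, and the small vessels that feed the outer wall and the tissue around it carry endothelium too. VEGF receptors and Tie receptors on these cells govern their growth and survival, junction proteins seal them to each other, and transcription factors of the SOX and ETS families set their identity. Arterial endothelium is marked by Notch signalling and particular connexins, capillary endothelium by genes that move fatty acids out of the blood, and lymphatic endothelium by Prox1 and the VEGF-C receptor Flt4. The aortic wall is mostly smooth muscle and matrix, so RNA from the endothelium is a small share of a whole-vessel extract.

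Values are log2 RMA expression values, and a difference of 1 is a 2-fold change. Levels of different probe sets cannot be set against each other. Lox itself read between 11.24 and 11.60 on the 4 WT arrays and between 8.51 and 8.87 on the 4 KO arrays, and the sources used here do not say where its probes lie relative to the altered allele. Replicates correlated across genes at 0.988 to 0.992. All 10 endothelial markers were above the dim limit, with a mean level of 8.02 to 8.66 over the arrays, and the smooth muscle list had a mean of 9.89 to 10.10. Markers of neighbouring tissues were uneven, as the plot of marker lists shows. WT ascending replicate 1 stood apart in thymus markers (a mean of 6.39 against 4.78 to 5.50 on the other 7 arrays), and KO descending replicate 2 in liver markers (8.46 against 5.40 to 7.14). The skeletal muscle list ran from 5.53 (WT ascending replicate 1) to 7.69 (KO descending replicate 1), and the heart muscle list from 7.24 (KO ascending replicate 1) to 8.48 (WT descending replicate 2). Both WT descending arrays held lung epithelial RNA, with the list at 5.35 and 5.89 against 4.37 to 4.77 elsewhere.

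**Figure D1:**
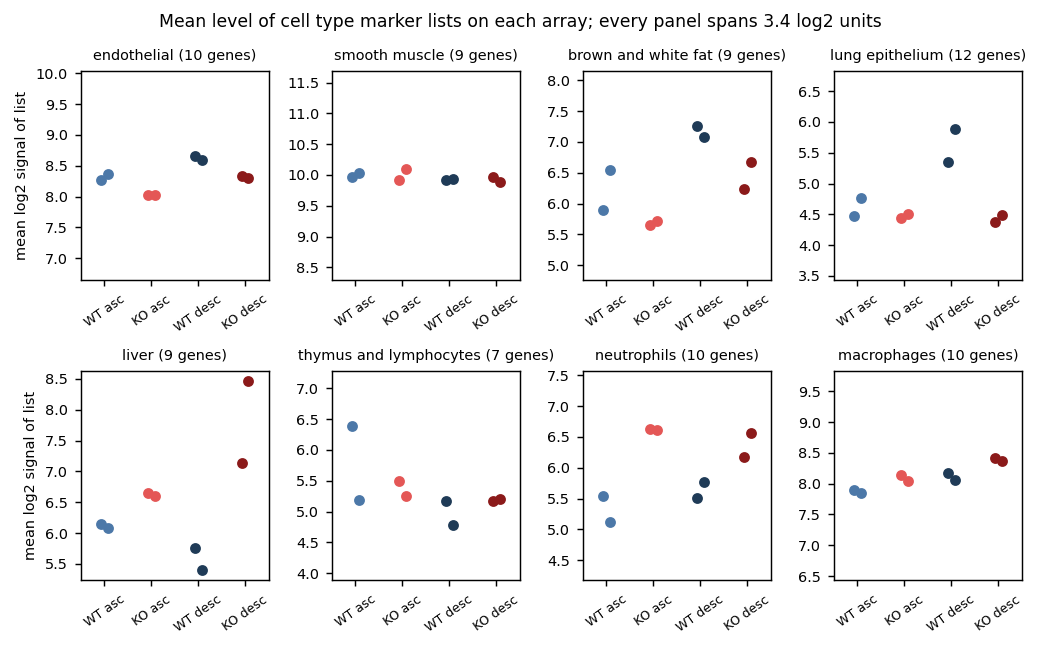
Mean log2 level of 8 marker lists on each of the 8 arrays (points), with arrays coloured by group. The endothelial list, whose genes are all members, lies between 8.02 and 8.66. The fat list is highest on the WT descending arrays (7.26 and 7.08), the liver list is highest on KO descending replicate 2 (8.46) and the thymus list on WT ascending replicate 1 (6.39).

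Promoter sequence could be matched for 26 of the 42 members in the RefSeq table of build GRCm38.p6. The 250 bases before the start site are shown for 5 genes around which the genotype comparison turns: 3 that were lower in KO (Kdr, Rbp7 and Cd36) and 2 that were higher (Flt1 and Sele). Each is written 5′ to 3′ on the gene's own strand, and capitals mark every match on either strand to the motifs named in the next paragraph.
Kdr, chr5:75978456-75978705, minus strand: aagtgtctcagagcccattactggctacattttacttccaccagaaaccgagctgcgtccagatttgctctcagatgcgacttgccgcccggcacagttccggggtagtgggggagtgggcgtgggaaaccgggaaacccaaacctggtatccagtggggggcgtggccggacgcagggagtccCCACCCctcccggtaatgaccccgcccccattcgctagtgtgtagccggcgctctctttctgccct
Flt1, chr5:147726012-147726261, minus strand: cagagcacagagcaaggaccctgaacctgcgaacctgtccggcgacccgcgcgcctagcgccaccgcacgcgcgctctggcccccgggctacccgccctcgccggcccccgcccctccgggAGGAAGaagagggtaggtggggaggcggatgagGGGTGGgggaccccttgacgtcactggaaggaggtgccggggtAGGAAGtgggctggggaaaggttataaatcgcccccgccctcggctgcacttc
Rbp7, chr4:149454969-149455218, minus strand: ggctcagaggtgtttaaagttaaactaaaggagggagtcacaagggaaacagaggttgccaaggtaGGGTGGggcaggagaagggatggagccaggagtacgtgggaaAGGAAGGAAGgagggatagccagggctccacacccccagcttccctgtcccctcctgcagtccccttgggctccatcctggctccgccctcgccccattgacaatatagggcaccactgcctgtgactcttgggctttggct
Cd36, chr5:17835897-17836146, minus strand: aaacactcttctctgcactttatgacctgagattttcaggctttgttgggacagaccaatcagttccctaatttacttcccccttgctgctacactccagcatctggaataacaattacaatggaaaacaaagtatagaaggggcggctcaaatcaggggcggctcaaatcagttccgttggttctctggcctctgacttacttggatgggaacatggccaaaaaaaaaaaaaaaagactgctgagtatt
Sele, chr1:164047984-164048233, plus strand: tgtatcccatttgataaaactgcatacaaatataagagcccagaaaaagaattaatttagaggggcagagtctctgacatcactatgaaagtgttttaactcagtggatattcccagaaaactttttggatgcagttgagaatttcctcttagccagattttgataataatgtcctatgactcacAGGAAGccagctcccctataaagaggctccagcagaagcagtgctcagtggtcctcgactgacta

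Short motifs of factor families known in endothelium were searched on both strands. The commoner form of the ETS motif, AGGAAG, was present in 12 of the 26 members (46.2%) and in 29.2% of all 27025 promoters in the table. It occurred in Flt1, in Sele and, as a pair of overlapping matches, in Rbp7. The KLF motif, searched as CCACCC, was present in 10 of 26 members (38.5%, against 27.7% of all), among them Kdr, Flt1 and Rbp7. The kappa B motif, searched as GGNNTTTCC with N for any base, was present in 4 of 26 (15.4%, against 4.8%), none of them shown. Other forms of the kappa B motif were not searched, so a promoter without a match, such as that of Sele, may still hold one. The GATA motif, searched as AGATAA, was present in 2 of 26 members (7.7%, against 10.3% of all promoters). A rarer form of the ETS motif, CGGAAG, was present in 1 of 26 members, Tie1 (3.8%, against 13.8%). None of these letters occurred in the Cd36 window. A match is a description of the letters and not a binding site.

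Most endothelial genes, 29 of 42 by the averaged difference, read lower in KO than in WT aorta, while a small group rose. Averaged over both segments, 11 of the 42 members fell (26.2%) and 5 rose (11.9%), beside 5.22% and 6.21% of all genes tested (limma, Benjamini-Hochberg adjusted p under 0.05 over all 16635 genes). The members that fell were Kdr, Tek, Pecam1, Esam, Cldn5, Robo4, Nos3, Cd36, Rbp7, Gpihbp1 and Aplnr. Those that rose were Flt1, Gja4, Vegfd, Esm1 and Sele. The members' median difference was -0.16 log2, against 0.00 over all genes tested. RNA was taken from whole tissue, so fewer endothelial cells and less RNA per endothelial cell cannot be told apart.

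Within a single segment fewer members passed the test. In ascending aorta 4 fell (9.52%, beside 1.19% of all genes) and 2 rose (4.76%, beside 1.54%). In descending aorta 3 fell (7.14%, beside 0.824%) and 1 rose (2.38%, beside 1.46%). The 2 segments share no array, though whether their pools came from the same pups is not known here. Of the 42 members, 36 had the same sign of KO minus WT in both segments (85.7%, against 67.6% of all genes). The difference was below 0 in both segments for 28 members (66.7%, against 33.3% of all genes). The 6 members of opposite sign were Flt4, Icam2, Lmo2, Plvap, Prox1 and Tal1, and the difference farthest from 0 among them was -0.19 log2 (Flt4, ascending).

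The median level over the 42 members showed the same order on the arrays. It was 7.17 and 7.28 in WT ascending, 6.91 and 7.08 in KO ascending, 7.72 and 7.46 in WT descending, and 7.46 and 7.40 in KO descending aorta. The KO values lay below the WT values in each segment, narrowly so in descending aorta, where the lower WT array and the higher KO array both read 7.46.

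**Figure D2:**
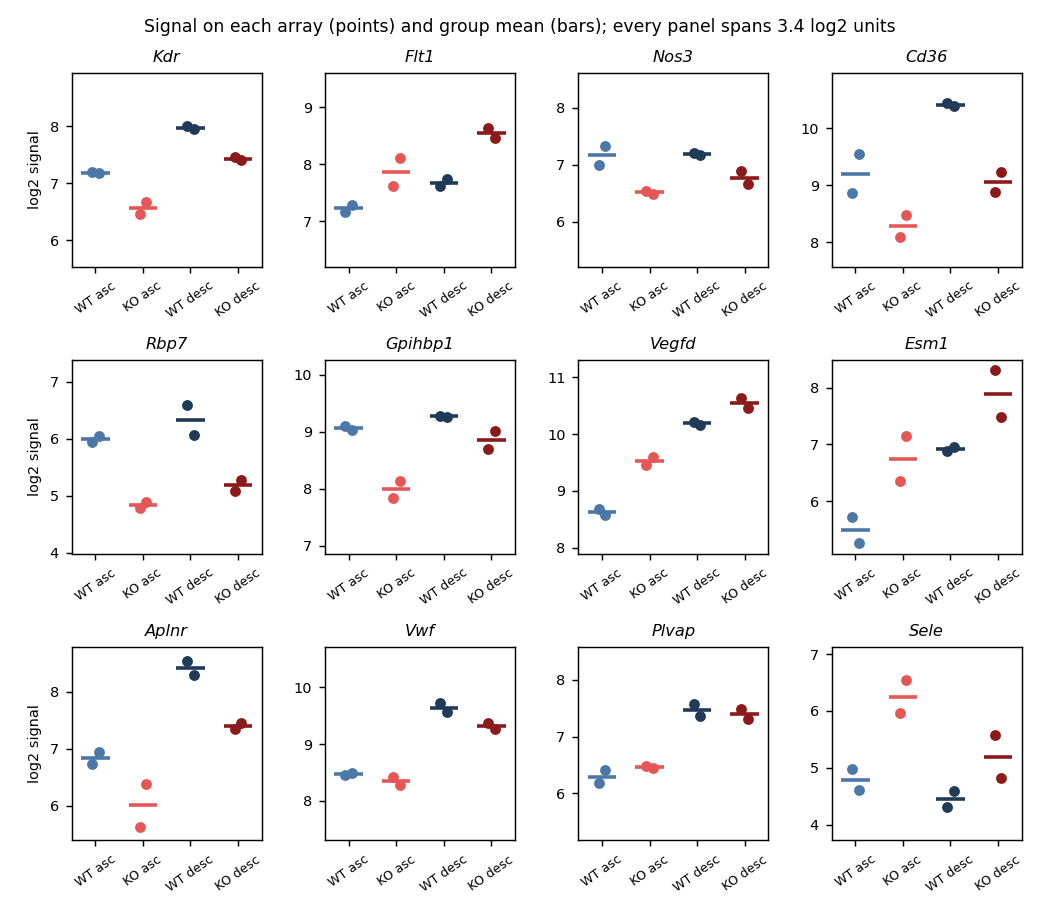
Log2 expression value of 12 endothelial members on each of the 8 arrays (points) with group means (bars), 1 panel per gene and every panel spanning the same range. Kdr and Rbp7 lie lower in KO than in WT in each segment, Flt1 lies higher, and Plvap and Aplnr lie lower in ascending than in descending aorta in each genotype.

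Among the 4 receptor genes, the paired VEGF receptors moved in opposite directions. Kdr encodes VEGF receptor 2, the main signalling receptor for VEGF-A. Its 2 values in each group, replicate 1 first here and below, were 7.20 and 7.18 in WT ascending, 6.46 and 6.67 in KO ascending, 8.01 and 7.95 in WT descending and 7.46 and 7.41 in KO descending aorta. Every KO array lay below both WT arrays of its segment. Kdr fell by 0.58 log2 averaged over segments (1.50-fold lower; 95% confidence interval -0.76 to -0.41; adjusted p = 0.0045), and it was called in each segment alone (adjusted p = 0.0255 ascending and 0.0445 descending).

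Flt1 encodes VEGF receptor 1, which binds VEGF-A tightly and, in its soluble form, holds it back from Kdr. It read 7.16 and 7.29 in WT ascending, 7.62 and 8.12 in KO ascending, 7.63 and 7.73 in WT descending and 8.64 and 8.47 in KO descending aorta. The KO arrays were the higher ones in both segments, with no overlap. Flt1 rose by 0.76 log2 (1.69-fold; interval 0.49 to 1.02; adjusted p = 0.00707), and it was called in descending aorta alone (0.87 log2, adjusted p = 0.0393) but not in ascending (0.64 log2, adjusted p = 0.0799).

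Tek encodes Tie2, the receptor for angiopoietins, and Tie1 encodes its partner. Tek read 8.69 and 8.96 in WT ascending, 8.45 and 8.45 in KO ascending, 8.98 and 8.78 in WT descending and 8.59 and 8.47 in KO descending aorta. Its KO values were the lower ones in each segment, and it fell by 0.36 log2 (SE 0.09; adjusted p = 0.037). Tie1 differed by -0.30 log2 and did not pass (adjusted p = 0.105).

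Of the 8 junction and surface genes, 4 fell and none rose in the averaged comparison, beside 5.22% and 6.21% of all genes. The same shares stand beside the averaged genotype counts of the other classes and marker lists below. Pecam1, an adhesion molecule at endothelial contacts, read 10.40 and 10.58 in WT ascending, 10.11 and 10.04 in KO ascending, 10.63 and 10.59 in WT descending and 10.31 and 10.33 in KO descending aorta. Cldn5, a tight junction protein of endothelium, read 7.17 and 7.24 in WT ascending, 6.64 and 6.59 in KO ascending, 7.67 and 7.36 in WT descending and 7.04 and 7.26 in KO descending aorta. Neither gene's KO values overlapped with the WT values of the same segment. Pecam1 fell by 0.35 log2 (SE 0.07; adjusted p = 0.0205) and Cldn5 by 0.48 log2 (SE 0.09; adjusted p = 0.0159).

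Robo4, a guidance receptor that steadies the vessel barrier, and Esam, an adhesion molecule at tight junctions, also fell. Robo4 read 5.56 and 5.74 in WT ascending, 5.24 and 5.12 in KO ascending, 5.87 and 5.92 in WT descending and 5.45 and 5.61 in KO descending aorta, and Esam read 7.17 and 7.28 in WT ascending, 6.95 and 7.13 in KO ascending, 7.84 and 8.03 in WT descending and 7.53 and 7.49 in KO descending aorta. The averaged falls were 0.42 log2 for Robo4 (adjusted p = 0.0157) and 0.30 log2 for Esam (adjusted p = 0.0485). For both, the KO arrays were below the WT arrays of the same segment.

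Cdh5 encodes VE-cadherin, the adherens junction protein of endothelium. It read 10.01 and 9.93 in WT ascending, 9.50 and 9.62 in KO ascending, 10.12 and 10.18 in WT descending and 10.05 and 10.05 in KO descending aorta. All 4 KO values were below the WT values of their segment, but the averaged difference of -0.25 log2 missed the threshold (adjusted p = 0.0541). The remaining surface genes were not called: Emcn, a sialomucin, differed by -0.19 log2, Ecscr, an endothelial surface protein, by -0.18 and Icam2, a leukocyte adhesion molecule, by 0.05. No junction or surface gene was called in a single segment (smallest adjusted p = 0.0559 ascending and 0.0991 descending).

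None of the 3 secreted proteins and none of the 4 transcription factors was called between genotypes. Vwf, the clotting factor stored in endothelial granules, differed by -0.22 log2 (adjusted p = 0.1). Egfl7, a matrix-bound vessel factor, differed by -0.26 log2 and Mmrn2, an endothelial matrix glycoprotein, by -0.09. Among the transcription factors the differences were -0.19 log2 for Fli1, 0.10 for Erg, -0.14 for Sox18 and 0.05 for Sox7. Erg and Fli1 are ETS factors, and Sox7 and Sox18 belong with Sox17 to the SOXF group. Fli1 read 8.46 and 8.51 in WT ascending, 8.20 and 8.34 in KO ascending, 8.77 and 8.55 in WT descending and 8.51 and 8.47 in KO descending aorta. Its KO arrays lay below the WT arrays of the same segment, in descending aorta by less than the gap between the WT replicates.

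The 6 arterial genes did not move as a block. Nos3, the endothelial nitric oxide synthase, read 6.99 and 7.34 in WT ascending, 6.55 and 6.48 in KO ascending, 7.21 and 7.18 in WT descending and 6.89 and 6.66 in KO descending aorta. Nos3 fell by 0.53 log2 (1.45-fold lower; adjusted p = 0.0124), and in ascending aorta alone by 0.65 log2 (adjusted p = 0.0482). The KO values lay below the WT values in each segment.

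Gja4, which encodes connexin 37, a gap junction protein of arterial endothelium, rose instead. It read 7.79 and 7.55 in WT ascending, 8.12 and 8.0 in KO ascending, 7.93 and 8.01 in WT descending and 8.25 and 8.48 in KO descending aorta. Each KO value exceeded both WT values of its segment, and the rise was 0.39 log2 (SE 0.09; adjusted p = 0.0295). The 4 other arterial genes were not called, with differences of -0.05 log2 for Gja5 (connexin 40), 0.02 for the Notch ligand Dll4, -0.06 for the receptor Notch4 and -0.23 for the arterial transcription factor Sox17.

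The capillary and fatty acid handling genes held the deepest falls, with 3 of 4 called. Rbp7, a retinoid-binding protein of capillary endothelium, read 5.95 and 6.05 in WT ascending, 4.78 and 4.90 in KO ascending, 6.59 and 6.07 in WT descending and 5.09 and 5.28 in KO descending aorta. All 4 KO values were below all 4 WT values. Rbp7 fell by 1.15 log2 (2.23-fold lower; interval -1.42 to -0.88; adjusted p = 0.00177) and was called in each segment alone (adjusted p = 0.0153 ascending and 0.0191 descending).

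Cd36, a fatty acid transporter that fat cells, platelets and macrophages also express, read 8.86 and 9.54 in WT ascending, 8.09 and 8.47 in KO ascending, 10.45 and 10.39 in WT descending and 8.87 and 9.22 in KO descending aorta. Cd36 fell by 1.15 log2 (2.21-fold lower; interval -1.51 to -0.78; adjusted p = 0.00559), with a fall of 1.37 log2 in descending aorta (adjusted p = 0.0309) and a difference of -0.92 log2 in ascending aorta that did not pass (adjusted p = 0.0722). In each segment both KO arrays were below both WT arrays. Gpihbp1, which carries lipoprotein lipase across capillary endothelium, read 9.11 and 9.03 in WT ascending, 7.84 and 8.13 in KO ascending, 9.28 and 9.27 in WT descending and 8.69 and 9.01 in KO descending aorta. It fell by 0.75 log2 (adjusted p = 0.00461), and in ascending aorta alone by 1.08 log2 (adjusted p = 0.0113). Plvap, the diaphragm protein of fenestrated capillaries, differed by 0.05 log2 between genotypes and was not called.

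Fat markers moved with these genes. Of 10 listed fat markers, beginning with Adipoq, Plin1 and Cidea, 8 were tested, and 4 fell in the averaged genotype comparison while none rose. The mean of the list was 5.90 and 6.54 in WT ascending, 5.66 and 5.72 in KO ascending, 7.26 and 7.08 in WT descending, and 6.23 and 6.67 in KO descending aorta. It was lower in KO than in WT in each segment and lower in ascending than in descending aorta. Its part in the falls of Cd36, Rbp7 and Gpihbp1 was not tested.

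Lung markers also fell in KO. Of 10 lung epithelial markers tested (Sftpc, Sftpa1 and Sftpb first in the list), 3 fell in descending aorta (beside 0.824% of all genes). The list median there was -0.76 log2, and none of the 10 was called in ascending aorta. In the averaged comparison 3 of 10 fell, with a median of -0.43 log2, and none rose. Of 6 markers of lung mesenchyme and capillaries (Car4, Foxf1 and Tbx4 first), 2 fell in the averaged comparison and none rose. The mean of that list was 5.32 to 5.55 on the WT arrays and 5.01 to 5.39 on the KO arrays. The part of lung RNA in the falls of the members was not tested.

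Of the 5 lymphatic genes and their ligands, Vegfd was called. Vegfd encodes VEGF-D, a ligand of Flt4, and which cells of the aorta made its RNA was not tested. It read 8.68 and 8.57 in WT ascending, 9.46 and 9.60 in KO ascending, 10.21 and 10.16 in WT descending and 10.63 and 10.45 in KO descending aorta. KO arrays were the higher ones in both segments, and the rise was 0.63 log2 (1.54-fold; interval 0.45 to 0.81; adjusted p = 0.00396). In ascending aorta alone it was 0.90 log2 (adjusted p = 0.00971), and in descending aorta the difference of 0.35 log2 did not pass (adjusted p = 0.143). The lymphatic genes themselves were not called: Prox1, the lymphatic master regulator, differed by 0.01 log2, Flt4 by -0.04, and Mmrn1, a granule protein of platelets and lymphatic endothelium, by -0.02. Vegfc, the other Flt4 ligand, differed by -0.31 log2 (adjusted p = 0.143).

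Apelin receptor and tip cell genes split. Aplnr, the apelin receptor, read 6.74 and 6.95 in WT ascending, 5.63 and 6.38 in KO ascending, 8.54 and 8.29 in WT descending and 7.35 and 7.45 in KO descending aorta, and it fell by 0.93 log2 (1.90-fold lower; adjusted p = 0.00957). Esm1, a secreted proteoglycan of sprouting tip cells, read 5.73 and 5.26 in WT ascending, 6.35 and 7.15 in KO ascending, 6.88 and 6.96 in WT descending and 8.30 and 7.48 in KO descending aorta, and it rose by 1.11 log2 (2.16-fold; SE 0.22; adjusted p = 0.0178). Neither gene's KO values overlapped with the WT values of their segment, and neither was called in 1 segment alone. The ligand gene Apln differed by -0.27 log2 (adjusted p = 0.26).

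Among the selectins and genes shared with blood cells, Sele was the 1 of 5 that changed. Sele encodes E-selectin, which inflamed endothelium displays to catch leukocytes. It read 4.98 and 4.60 in WT ascending, 5.96 and 6.54 in KO ascending, 4.31 and 4.60 in WT descending and 5.57 and 4.83 in KO descending aorta. Sele rose by 1.10 log2 (2.14-fold; interval 0.66 to 1.54; adjusted p = 0.011), and by 1.46 log2 in ascending aorta alone (adjusted p = 0.0329). Within each segment the KO arrays were the higher ones, but KO descending replicate 2 lay within the range of the WT ascending arrays. The WT values, 4.31 to 4.98, were near the dim limit of 4.11.

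Cd34, a surface sialomucin of endothelium and blood progenitors, read 10.99 and 10.96 in WT ascending, 10.96 and 10.95 in KO ascending, 10.95 and 10.78 in WT descending and 10.76 and 10.74 in KO descending aorta. All 8 values lay between 10.74 and 10.99, and it was not called (adjusted p = 0.601). Selp, which encodes P-selectin, differed by -0.14 log2. The blood and endothelial transcription regulators Tal1 and Lmo2 differed by 0.08 and 0.00 log2.

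Of 10 neutrophil markers (S100a8, S100a9 and Camp first), 8 rose in the averaged comparison and none fell, and the list mean was 5.12 to 5.77 on the WT arrays and 6.17 to 6.62 on the KO arrays. Platelet markers (Pf4, Ppbp and Itga2b first) were higher in KO ascending aorta, where 4 of 6 rose (beside 1.54% of all genes). Their list means were 7.99 and 7.78 there, against 7.07 to 7.27 on the other 6 arrays. Macrophage markers (Csf1r, Adgre1 and Cd68 first) rose for 4 of 10 in the averaged comparison. Liver markers (Alb, Afp and Ahsg first) rose for 8 of 9 in the averaged comparison and none fell. In KO descending aorta 7 of 9 rose (beside 1.46% of all genes) and none fell. The liver list mean was 5.40 to 6.15 on the WT arrays and 6.61 to 8.46 on the KO arrays. The part of these cells in the rise of Sele, or in the other member differences, was not tested.

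**Figure D3:**
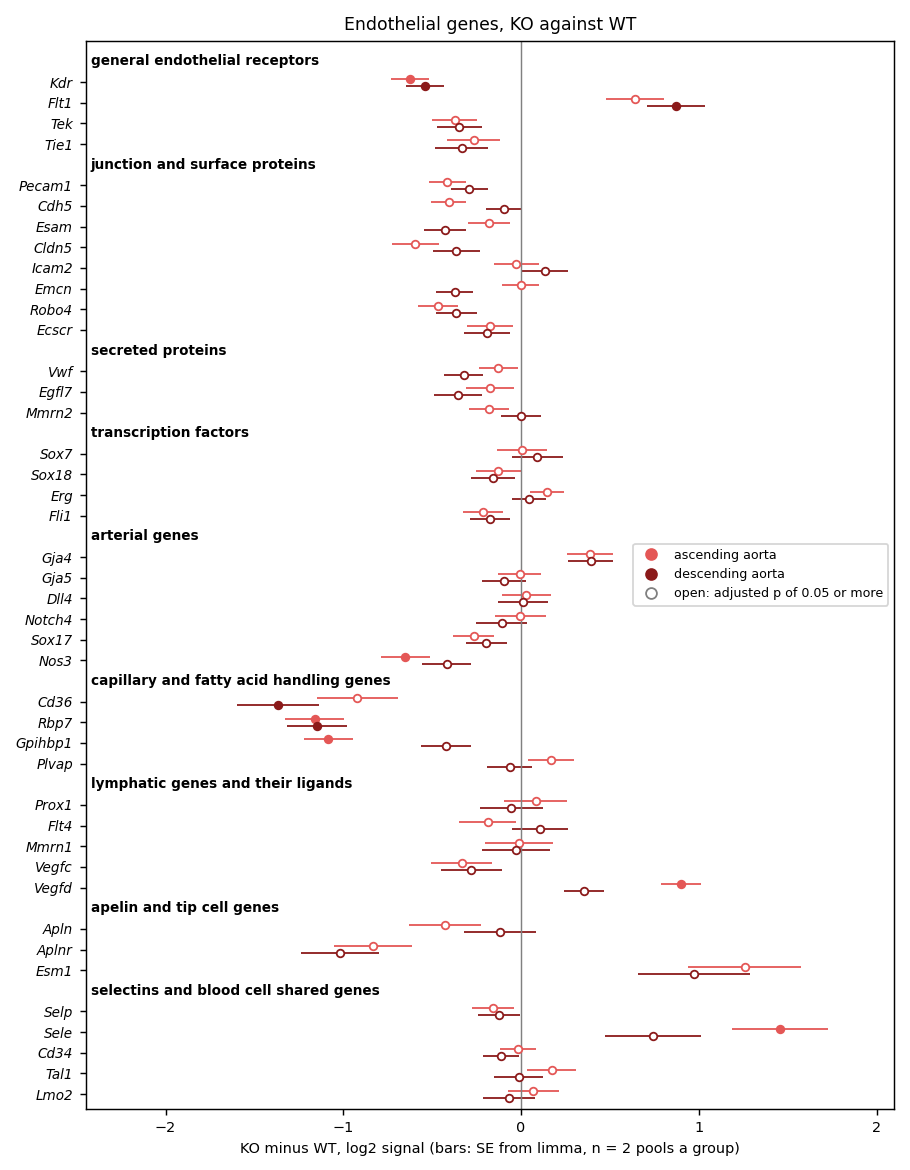
KO minus WT difference in log2 expression for each of the 42 members in ascending and in descending aorta, with bars of 1 SE, filled points at an adjusted p under 0.05 and genes ordered by role. Rbp7 (-1.16 and -1.15), Cd36 (-0.92 and -1.37) and Kdr (-0.62 and -0.54) lie below 0, and Flt1 (0.64 and 0.87), Esm1 (1.26 and 0.97) and Sele (1.46 and 0.74) lie above 0.

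The averaged genotype counts rested in part on single arrays: 16 calls became 9 without WT ascending replicate 2, 9 without WT descending replicate 1, and 10 without both arrays that stood apart in thymus and liver markers. Kdr, Flt1, Nos3, Cd36, Rbp7, Gpihbp1, Vegfd and Sele were called under every alternative run on the averaged comparison, and none of the calls within 1 segment was.

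The ascending aorta carried less RNA of many endothelial genes than the descending aorta, in both genotypes. Averaged over genotypes, 17 of the 42 members were lower in ascending aorta (40.5%, beside 2.57% of all genes) and none was higher (beside 1.50% of all genes). These shares of all genes also stand beside the averaged segment counts of the classes and marker lists below. In WT alone 8 were lower (19.0%, beside 0.974%) and none higher (beside 0.511%). In KO alone 7 were lower (16.7%, beside 0.938%) and none higher (beside 0.547%). The members' median difference, ascending minus descending, was -0.25 log2 in WT and -0.29 in KO, against 0.00 over all genes in each.

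The comparisons in WT and in KO share no array. The sign was the same in both for 41 of 42 members (97.6%, against 58.6% of all genes), and 36 were below 0 in both (85.7%, against 30.1%). Apln was the member of opposite sign. Across the 42 members the differences in WT and KO correlated at 0.86, against 0.52 across all genes tested, where genes are not independent points.

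Aplnr, Vegfd, Vwf and Plvap held the deepest differences among the members called in both genotypes. Aplnr fell by 1.58 log2 from descending to ascending aorta in WT (adjusted p = 0.0138) and by 1.39 in KO (adjusted p = 0.0217). Vegfd fell by 1.56 log2 in WT (adjusted p = 8.69e-04) and 1.01 in KO (adjusted p = 0.00627). Vegfd was lower in ascending aorta but higher in KO, and Aplnr was lower in both respects.

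Vwf read 8.47 and 8.49 in WT ascending, 8.42 and 8.28 in KO ascending, 9.73 and 9.56 in WT descending and 9.37 and 9.27 in KO descending aorta. Plvap read 6.18 and 6.40 in WT ascending, 6.48 and 6.44 in KO ascending, 7.57 and 7.35 in WT descending and 7.49 and 7.30 in KO descending aorta. For both genes all 4 ascending values lay below all 4 descending values. Vwf fell by 1.16 log2 in WT and 0.97 in KO (adjusted p = 0.00296 and 0.00647), and Plvap by 1.17 and 0.94 log2 (adjusted p = 0.00513 and 0.0131).

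Kdr was also lower in ascending aorta in both genotypes, by 0.79 log2 in WT (adjusted p = 0.012) and 0.87 log2 in KO (adjusted p = 0.00892). Flt1 shared this segment difference with Kdr: averaged over genotypes it fell by 0.57 log2 (adjusted p = 0.0305), although the genotypes moved the 2 receptors in opposite directions. Tek (-0.07 log2) and Tie1 (-0.20 log2) were not called between segments.

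Junction genes lower in ascending aorta were Esam (-0.59 log2, adjusted p = 0.00562), Cldn5 (-0.42 log2, adjusted p = 0.0445) and Cdh5 (-0.33 log2, adjusted p = 0.0386), 3 of 8. The averaged differences of Robo4 (-0.30 log2), Ecscr (-0.26), Pecam1 (-0.18) and Icam2 (-0.17) did not pass. Emcn was the member of this class on the other side of 0 (0.27 log2, adjusted p = 0.0912).

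Mmrn2 read 8.60 and 8.86 in WT ascending, 8.58 and 8.52 in KO ascending, 9.20 and 9.20 in WT descending and 9.21 and 9.18 in KO descending aorta. Its ascending values were the lower ones in each genotype, and it fell by 0.56 log2 (adjusted p = 0.00635). Egfl7 differed by -0.25 log2 and was not called.

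Between segments 2 of the 4 transcription factors were called. Erg read 7.96 and 8.01 in WT ascending, 8.16 and 8.10 in KO ascending, 8.45 and 8.43 in WT descending and 8.50 and 8.47 in KO descending aorta. Sox18 read 6.80 and 6.95 in WT ascending, 6.88 and 6.62 in KO ascending, 7.47 and 7.30 in WT descending and 7.26 and 7.19 in KO descending aorta. In each genotype the ascending arrays of both genes were below the descending ones. Erg fell by 0.41 log2 (SE 0.07; adjusted p = 0.0128) and Sox18 by 0.49 log2 (SE 0.09; adjusted p = 0.0188). Fli1 (-0.20 log2) and Sox7 (-0.18 log2) did not pass.

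Of the 6 arterial genes, Gja5 and Sox17 were lower in ascending aorta. Gja5 read 6.63 and 6.86 in WT ascending, 6.84 and 6.63 in KO ascending, 7.43 and 7.42 in WT descending and 7.39 and 7.26 in KO descending aorta. Sox17 read 6.52 and 6.62 in WT ascending, 6.38 and 6.22 in KO ascending, 6.95 and 7.15 in WT descending and 6.89 and 6.82 in KO descending aorta. All 4 ascending values of each were below its 4 descending values. The averaged falls were 0.63 log2 for Gja5 (adjusted p = 0.00526) and 0.52 log2 for Sox17 (adjusted p = 0.00952). Gja4 (-0.31 log2), Dll4 (-0.27), Notch4 (-0.17) and Nos3 (-0.15) were below 0 as well but were not called.

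Among capillary genes, Cd36 fell by 0.99 log2 from descending to ascending aorta (adjusted p = 0.0113) and Gpihbp1 by 0.53 log2 (adjusted p = 0.0212), whereas Rbp7, at -0.34 log2, was not called. Fat markers were lower in ascending aorta too, 5 of 8 in the averaged comparison. Lung epithelial markers (Sftpc, Sftpa1 and Sftpb first) were raised on both WT descending arrays, with Sftpc at 8.37 and 10.15 there and 4.50 to 5.07 on the other 6. On the KO arrays the lung epithelial list read 4.37 to 4.51.

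Nerve and Schwann cell markers were lower in ascending aorta as well, with 4 of 6 tested in the averaged comparison. In WT 3 of 6 were lower (beside 0.974% of all genes), and in KO 3 of 6 (beside 0.938%). The mean of the list was 5.24 to 5.48 on the ascending arrays and 6.04 to 6.37 on the descending arrays. Of 9 smooth muscle markers, 2 were higher in ascending aorta in the averaged comparison and none lower, and of 6 platelet markers 2 were higher. A single marker was lower in ascending aorta among 9 of heart muscle and among 10 of macrophages. The part of these cells, of fat and of lung in the segment differences of the members was not tested.

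Esm1 fell by 1.28 log2 toward the ascending segment (adjusted p = 0.0161), and Apln (0.08 log2) did not pass. The lymphatic genes Prox1 (-0.18 log2), Flt4 (-0.24) and Mmrn1 (-0.14) were not called between segments, nor was Vegfc (0.33 log2). Of the blood-shared genes none was called: Sele differed by 0.69 log2, Cd34 by 0.16, Tal1 by 0.14, Selp by -0.06 and Lmo2 by -0.07.

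**Figure D4:**
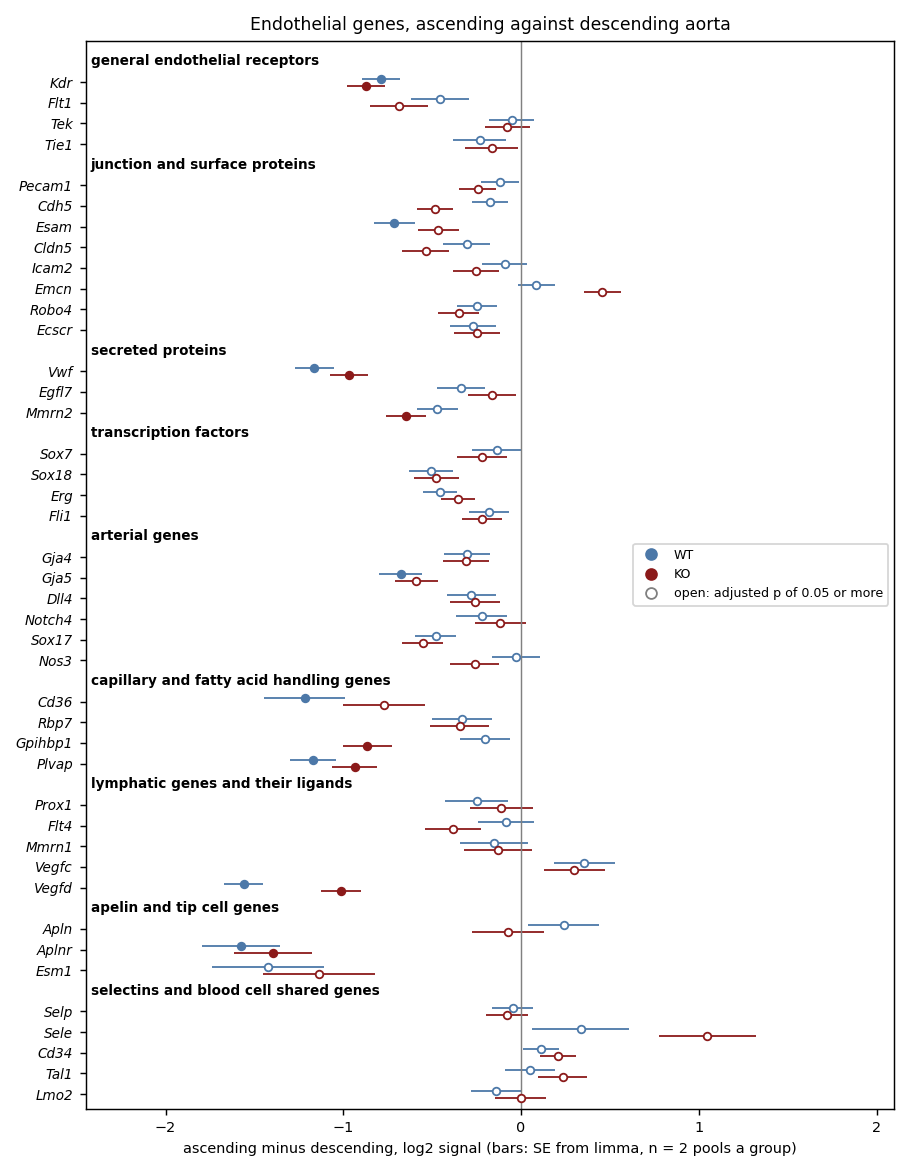
Ascending minus descending difference in log2 expression for each of the 42 members in WT and in KO, with bars of 1 SE, filled points at an adjusted p under 0.05 and genes ordered by role. Most points lie below 0 in both genotypes, with Vegfd (-1.56 and -1.01), Aplnr (-1.58 and -1.39), Vwf (-1.16 and -0.97) and Plvap (-1.17 and -0.94) among the lowest.

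The 17 averaged segment calls became 9 without WT descending replicate 1, 11 without WT ascending replicate 1 and 6 without both arrays that stood apart in thymus and liver markers. Aplnr, Kdr, Plvap, Vegfd and Vwf were called under every alternative run on this comparison, and Vegfd also under every one run on WT and on KO alone.

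Whether the genotype difference itself depended on the segment was tested by the interaction. None of the 42 members and 0% of the 16635 genes passed (limma, smallest adjusted p among members 0.775), and no alternative gave a member call. At an unadjusted p under 0.05 there were 3 members and 932 genes. The 3 were Vegfd, whose KO minus WT difference was 0.55 log2 larger in ascending aorta (interval 0.19 to 0.91), Emcn (0.37 log2) and Gpihbp1 (-0.66 log2, interval -1.11 to -0.21). A member called in 1 segment and not in the other is therefore not shown to differ between them.

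Genes outside the 42 from the same pathways were read from lists that exclude the members. Beside their averaged counts, 5.22% of all genes fell and 6.21% rose in KO. Between segments 2.57% of all genes were lower and 1.50% higher in ascending aorta. Of 35 further pan-endothelial genes tested, 11 fell in KO and none rose in the averaged comparison, with a list median of -0.21 log2 against 0.00 over all genes. The 3 with the smallest p in a segment were Cdh13, an adhesion molecule (fell by 0.61 log2, adjusted p = 0.00248), Rasgrp3, a Ras activator (fell by 0.57 log2, adjusted p = 0.00596), and Kank3 (fell by 0.44 log2, adjusted p = 0.0185). Between segments 8 of the 35 were lower in ascending aorta and none higher.

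The ligands and coreceptors of the VEGF and Tie systems went both ways. Of 12 tested, 3 rose and 2 fell in KO. Vegfa, the ligand of Kdr and Flt1, rose by 0.33 log2 (adjusted p = 0.0252). Angpt1, the activating ligand of Tek, fell by 0.55 log2 (adjusted p = 0.00748), and Ptprb, a phosphatase that acts on Tek, fell by 0.31 log2 (adjusted p = 0.0491). In the segment comparison 3 of the 12 were lower in ascending aorta and none higher.

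Lipid transport genes outside the list ran with Cd36 and Gpihbp1: 6 of 13 fell in KO and none rose, and 5 were lower in ascending aorta. Angptl4, an inhibitor of lipoprotein lipase, fell by 1.43 log2 in KO (adjusted p = 0.00487). Pparg, a nuclear receptor of fat cells and capillary endothelium, fell by 0.78 log2 (adjusted p = 0.018), and Lpl, lipoprotein lipase itself, by 0.42 log2 (adjusted p = 0.0391). Fat cells express these genes too, and the part of the fat markers was not tested.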

How the data were processed

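Total RNA from the 8 pools (50 ng each, amplified and biotin labelled with NuGEN kits per the labels' protocols) was read on Affymetrix arrays. The authors deposited log2 values made with RMA in Affymetrix Expression Console, per the submitters' processing notes, and the sources used here give no versions. Array medians lay between 5.11 and 5.19. Of 41345 probe sets, 23521 carried a single symbol in the platform table, 1814 more than 1 and 16010 none. The probe set with the highest mean was kept per gene (22180 genes), and genes below the 25th percentile of mean (4.11 log2) were left out.

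Tests used limma 3.58.1 in R 4.3.3 (lmFit and eBayes, residual df 4, prior df 4.51), with a mean for every group, all 8 arrays in 1 model and no covariate, with Benjamini-Hochberg adjustment over 16635 genes and a threshold of 0.05. Rose, fell, lower and higher call a gene only past that threshold, except where per-array values are described. Averaged comparisons reuse the arrays of the comparisons within 1 segment or genotype. The p-values measure spread between pools, and 2 arrays a group limit the precision. The method was also run on simulated data, where the check made was that most changes of 2 log2 were called. No member difference was that large, so the check does not show how often smaller ones are called. Members and lists were chosen with earlier results of these data known.

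Every member was to be named, with values on every array for members called in any comparison and, per role, the member with the highest mean and the one with the largest difference. Of each pathway list up to 3 genes with the smallest p in a genotype comparison were named. The labels tie replicate numbers to no litter or day, so pools were not paired by them. The difference of replicate 1 and 2 correlated between groups at -0.10 to 0.13. The alternatives changed the filter (none, or the 50th percentile), the prior (trended and robust), the scaling (cyclic loess, or shifting arrays to 1 median) or the weights of arrays. Others added a replicate block, averaged probe sets per gene, used only the compared arrays, or dropped single arrays. Figures were drawn with matplotlib 3.10.9. Promoters came from RefSeq tables.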

Additional observations from a re-analysis of the deposited data

How the results depend on the processing

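With 2 arrays a group, counts of members called moved more than the differences behind them. Over 58 member calls and 1008 alternatives, 772 calls were kept, 236 were lost and none reversed, and 15 calls held under every alternative. Averaging probe sets, which is among these alternatives, could not change a member's values, because every member had 1 probe set. It acted on the members' calls only through the other genes. Members called for KO against WT in ascending aorta (6) became 11 under the stricter filter (50th percentile), 11 under a trended robust prior and 3 with only the arrays compared. In descending aorta the 4 calls became 2 with no filter, 9 with the trended robust prior and 2 with the replicate number as a block, where the numbers are not known to pair the pools. The 7 segment calls in KO became 11, 12 and 4 with the 50th percentile filter, the trended robust prior and only the arrays compared. Leaving out 1 array at a time gave 0 to 5 genotype calls in ascending aorta (0 without WT ascending replicate 2, 1 without WT ascending replicate 1 or KO ascending replicate 1, and 3 without KO ascending replicate 2 or either WT descending array). It gave 0 to 4 in descending aorta (0 without WT descending replicate 1 or either KO descending array, 1 without WT descending replicate 2, and 2 without either WT ascending array). Segment calls ranged over 3 to 7 in WT and 2 to 7 in KO, and averaged calls over 9 to 15 for genotype and 9 to 14 for segment. Where 1 array of a group was left, its spread was taken from the other groups. An alternative added after seeing the data left out both WT ascending replicate 1 and KO descending replicate 2. It gave 0, 1, 1 and 1 calls for genotype in ascending and descending aorta and for segment in WT and KO, 10 for the averaged genotype and 6 for the averaged segment comparison. The cause of these shifts was not tested. The members' median difference kept its sign under each alternative. For genotype in ascending aorta it was -0.06 without WT ascending replicate 2, and in descending aorta -0.22 without WT descending replicate 2 and -0.20 without KO descending replicate 1. The filter at the 50th percentile left out Sele, Robo4, Dll4, Tal1 and Apln, so these have no value there. The counts and medians under that filter do not cover them. The Sele call among the 15 was kept under the 16 alternatives that held a value for it.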

Other observations

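Counts for further pathway lists next to the endothelial members are given here as values with no explanation. In the averaged genotype comparison used for each list here, 6.21% of all genes rose and 5.22% fell. Of 13 Notch pathway genes tested, 3 rose in KO and none fell in the averaged comparison. Hes1, a Notch target, rose by 0.40 log2 (adjusted p = 0.0186) and Nrarp, a Notch feedback regulator, by 0.43 log2 (adjusted p = 0.0152), while Hey2 differed by -0.27 log2 and did not pass (adjusted p = 0.0587).

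Of 10 genes known to respond to flow, 3 rose and 1 fell in KO. Edn1, which encodes the vasoconstrictor endothelin 1, rose by 0.49 log2 (adjusted p = 0.0061), Vcam1, a leukocyte adhesion molecule, by 0.44 log2 (adjusted p = 0.0258) and Thbd, the anticoagulant thrombomodulin, by 0.34 log2 (adjusted p = 0.03). Of 14 venous and lymphatic genes outside the members, 2 rose and none fell: Foxc2, a regulator of lymphatic valves, rose by 0.65 log2 (adjusted p = 0.00804) and Stab1, a scavenger receptor, by 0.26 log2 (adjusted p = 0.0499). Pdpn, a surface protein of lymphatic endothelium and other cells, differed by 0.26 log2 and did not pass (adjusted p = 0.0575).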
